A study of Mus musculus with 6 samples.

Results

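Kinesins are motor proteins that walk along or take apart microtubules, and their genes were examined for E2F1 binding. The members were all protein-coding genes of the mouse RefSeq table (assembly GRCm38.p6) whose symbol starts with Kif and goes on with a digit or the letter c, which gave 42 of 21900 genes. They were divided by textbook function into 13 mitotic kinesins, 15 transport kinesins and 14 others. The mitotic kinesin Cenpe does not match the symbol rule and is counted below among the spindle partners. Every mitotic kinesin gene had an E2F1 peak in both libraries with induced E2F1, against 8 of 15 transport kinesins, 5 of 14 others and 34.4% of all protein-coding genes. No kinesin gene had a peak in either empty vector library, where only 0.0365% and 0.406% of all protein-coding genes had one. Whether mitotic or transport kinesins had the higher median fold depended on the library and on which peaks were counted.

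Binding of the transcription factor E2F1 was measured by chromatin immunoprecipitation and sequencing (ChIP-seq) in NIH/3T3, a long-established fibroblast line from mouse embryos. All cells carried a stably integrated doxycycline-inducible construct, were starved of serum for 48 h and then received doxycycline for 12 h. The construct expressed E2F1 in 2 libraries and was an empty vector (EV) in the other 2. E2F1 peaks therefore came from cells with an added E2F1 gene and not from the endogenous protein alone. The labels do not say whether a line was 1 clone or whether replicates were separate cultures, so a test over libraries measures only the spread between these libraries. A further 2 samples, input DNA of EV cells, were not analysed here.

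E2F proteins bind promoters of genes needed to enter and pass through the cell cycle, and E2F1 is held inactive by the retinoblastoma protein in resting cells. Mitotic kinesins are made late in the cell cycle. They separate the spindle poles, move and align chromosomes, and build the midzone at which the cell divides. Their promoters are known targets of the MuvB complexes, which bind the cell cycle genes homology region (CHR), and often hold CCAAT boxes, which bind NF-Y. Transport kinesins carry vesicles, organelles and RNA, many of them in resting cells and neurons.

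The stretches that the mitotic kinesin results turn on are those around the transcription start. Every gene printed below had an E2F1 peak within 1000 bp of its start in both lists. The strongest Kif22 peaks lay at the far end of that gene, and the Kifc5b peak of replicate 1 began after the start. Each sequence runs from 60 bases before to 40 bases from the start onwards, 5′ to 3′ on the strand of the gene, from RefSeq promoters of GRCm38.p6. Capitals mark matches, on either strand, to the CHR (TTTGAA or TTCGAA), to CCAAT and to E2F motifs of 8 bases (TTTCCCGC, TTTCGCGC, TTTGCCGC or TTTGGCGC). Shown are the 9 mitotic kinesins with a CHR match within 50 bases of the start, Kif18a with an E2F motif instead, and for contrast Kif24 and Kif1c, the other kinesin and the transport kinesin with the highest mean fold. Kif11 lies at chr19:37376322-37376421 (+), Kif15 at chr9:122951021-122951120 (+), Kif18a at chr2:109280678-109280777 (+), and Kif18b at chr11:102925085-102925184 (-). Kif20b lies at chr19:34922298-34922397 (+), Kif22 at chr7:127042381-127042480 (-), Kif23 at chr9:61946760-61946859 (-), and Kif4 at chrX:100626005-100626104 (+). Kifc1 lies at chr17:33890594-33890693 (-), Kifc5b at chr17:26917031-26917130 (+), Kif24 at chr4:41464809-41464908 (-), and Kif1c at chr11:70700488-70700587 (+).
Kif11: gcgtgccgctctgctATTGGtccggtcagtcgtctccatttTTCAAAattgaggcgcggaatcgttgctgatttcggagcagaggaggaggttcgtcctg
Kif15: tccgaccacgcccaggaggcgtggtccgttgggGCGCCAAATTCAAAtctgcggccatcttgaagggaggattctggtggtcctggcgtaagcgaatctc
Kif18a: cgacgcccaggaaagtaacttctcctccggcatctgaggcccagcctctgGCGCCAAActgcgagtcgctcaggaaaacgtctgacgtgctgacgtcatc
Kif18b: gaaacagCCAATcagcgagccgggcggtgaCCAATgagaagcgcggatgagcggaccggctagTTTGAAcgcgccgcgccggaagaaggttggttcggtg
Kif20b: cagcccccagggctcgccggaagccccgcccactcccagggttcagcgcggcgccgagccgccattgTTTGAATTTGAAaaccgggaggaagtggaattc
Kif22: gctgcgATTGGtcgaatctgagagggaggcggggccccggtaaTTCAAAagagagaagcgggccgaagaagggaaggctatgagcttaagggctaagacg
Kif23: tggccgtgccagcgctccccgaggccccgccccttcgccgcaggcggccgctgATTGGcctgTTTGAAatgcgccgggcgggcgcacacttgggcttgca
Kif4: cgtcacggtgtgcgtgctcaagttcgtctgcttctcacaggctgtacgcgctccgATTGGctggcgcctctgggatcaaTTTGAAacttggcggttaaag
Kifc1: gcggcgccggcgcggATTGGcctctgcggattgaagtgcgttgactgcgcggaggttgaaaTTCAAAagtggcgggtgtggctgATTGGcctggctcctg
Kifc5b: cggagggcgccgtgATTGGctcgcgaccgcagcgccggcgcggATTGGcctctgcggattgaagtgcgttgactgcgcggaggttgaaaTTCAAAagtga
Kif24: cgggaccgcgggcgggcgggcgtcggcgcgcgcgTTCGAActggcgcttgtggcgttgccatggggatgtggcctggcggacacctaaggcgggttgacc
Kif1c: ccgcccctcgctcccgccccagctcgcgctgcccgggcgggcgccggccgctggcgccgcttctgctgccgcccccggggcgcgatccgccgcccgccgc

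Within 50 bases of the start, the CHR matches of these mitotic kinesins began between 19 bases before it and base 30 counted from the start itself. Kif15 and Kif22 also held a CHR match further upstream, outside the printed stretch. Kif20b held 2 adjoining matches. In Kif15 the CHR near the start directly followed the E2F motif, which covers bases 27 to 20 before the start. Kif24 held the TTCGAA form 26 bases before its start, and the printed stretch of Kif1c held none of the motifs. Kifc1 and Kifc5b have similar promoters: 239 of 272 promoter bases (87.9%) were the same at a shift of 28 bases. Their motif matches are therefore not independent. Some reads could have been placed at either gene, which was not tested.

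The replicated comparison was the number of kinesin genes with a peak inside the gene or within 1000 bp of it. It was 28 and 26 in E2F1 replicates 1 and 2, and 0 in both EV libraries. The E2F1 libraries averaged 27 ± 1.41 genes (SD, n = 2), and the groups did not overlap. The exact two-sided permutation test over libraries gave p = 0.333, the smallest p that 2 against 2 allows, so the design cannot reach 0.05. Over all protein-coding genes the shares with a peak were 36.9% and 38.3% in the E2F1 lists and 0.0365% and 0.406% in the EV lists. The lists held 7836 and 8027 E2F1 peaks but only 70 and 358 EV peaks, so few EV peaks were there to fall at any gene.

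Of the 42 kinesin genes, 26 (61.9%, Wilson 95% interval 46.8 to 75.0%) had a peak in both E2F1 lists. Mitotic kinesins reached 13 of 13 (100%, 77.2 to 100%), transport kinesins 8 of 15 (53.3%, 30.1 to 75.2%) and the others 5 of 14 (35.7%, 16.3 to 61.2%). The share of the others was near the 34.4% of all genes, and the interval of the transport kinesins included it. These intervals cover counting error only. The members and classes were chosen with results of these data known, so the counts are a description and were not tested.

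**Figure D1:**
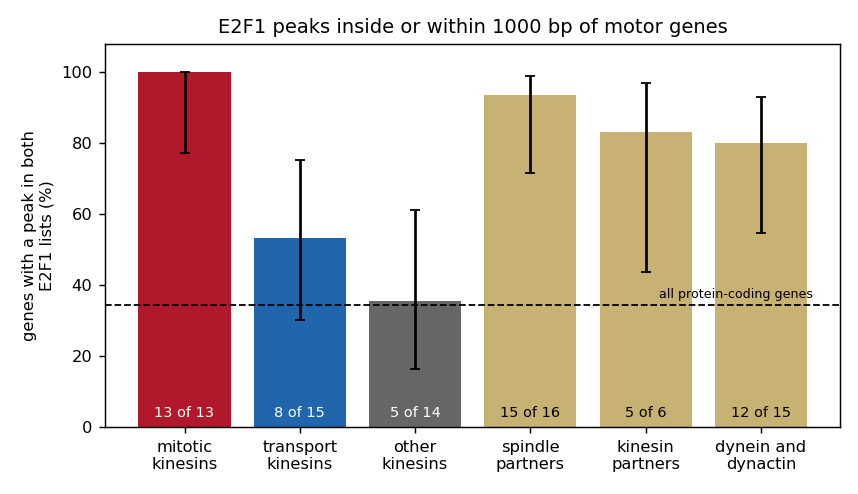
Share of genes (vertical axis, %) with a peak inside or within 1000 bp in both E2F1 lists, for the 3 kinesin classes and 3 lists of partner genes; error bars are Wilson 95% intervals and the dashed line is the share of all 21900 protein-coding genes. Mitotic kinesins (13 of 13) and spindle partners (15 of 16) stand highest, and the other kinesins (5 of 14) lie at the line.

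The classes also differed in gene length, whose part in the shares was not tested. Median lengths were 29534 bp for mitotic, 41996 bp for transport and 49300.5 bp for other kinesins, against 17146 bp for all protein-coding genes. When only peaks within 1000 bp of either end of the gene were counted, mitotic kinesins gave 13 of 13, transport kinesins 7 of 15 and the others 5 of 14, against 30.9% of all genes. The transport gene lost was Kifc3, whose peak lies inside the gene.

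Among the motors of spindle pole separation, Kif11 (Eg5), which pushes the poles apart, had a fold enrichment of 17.7 in E2F1 replicate 1 and 25.9 in replicate 2. Fold enrichment is the authors' ratio of read pileup to local background at the summit of the strongest peak at a gene. Where pileup and background are given below, the fold was taken as their ratio with 1 added to each. The Kif11 peaks ranked 1213 of 7836 and 1149 of 8027 by fold. Kif15, which helps hold the poles apart, had folds of 15.5 and 21.3. Kifc1, a minus-end-directed motor that crosslinks spindle microtubules, had folds of 11.0 and 19.9. Its copy Kifc5b had the lowest mean fold of the mitotic class, 5.67 and 5.56, at ranks 6696 and 7318.

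Motors that move or trim chromosome fibres spanned a similar range. Kif18b, which shortens microtubules at their plus ends, had folds of 22.7 and 20.5. Kif18a, which dampens the swings of aligned chromosomes, had 13.0 and 13.6, nearly the same in both libraries. Kif2c (MCAK), a microtubule depolymerase that corrects faulty attachments, was low in both lists with 5.87 and 8.27. Kif22 (Kid) is a chromokinesin that pushes chromosome arms away from the poles. Its strongest peaks had folds of 25.7 and 34.8 but lay at the far end of the gene, next to the zinc finger gene Maz. At its own start Kif22 had separate, weaker peaks with folds of 8.11 and 5.90, at ranks 4619 and 7073.

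The motors of the central spindle and of cell division held the mitotic genes whose folds differed most between the libraries, Kif20b and Kif23. Kif23 (MKLP1), the motor of the centralspindlin complex, had folds of 16.6 and 40.2, ranks 1399 and 389. Kif20b, which acts in the last steps of division, had 7.68 and 32.3, a ratio of 4.21 between the libraries and the widest of all kinesins. At Kif20b the pileup was 57 and 97 reads and the local background 6.56 and 2.03, so both parts of the ratio differed in the direction that raises the fold in replicate 2. Kif20a (MKLP2), which brings the chromosomal passenger complex to the midzone, had folds of 10.2 and 11.9. Kif4, a chromokinesin that also sets midzone length together with Prc1, had 9.48 and 12.6. Kif14, which recruits citron kinase to the midbody, had 11.7 and 9.28.

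The strongest transport kinesin was Kif1c, a carrier of vesicles, with folds of 18.3 and 25.3 and ranks of 1130 and 1189. Kif13b, which carries membrane proteins to the cell surface, had 17.6 and 15.4. Kif13a, a motor of endosomes, had 14.9 and 13.2. Kif5b, the widely expressed heavy chain of conventional kinesin, had 16.4 and 11.2. Kifc3, a minus-end-directed motor found at cell junctions, had 10.9 and 11.6. The summits at Kifc3 lay 42631 and 42643 bp from the nearer end of the gene, at the non-coding gene Gm31036. In this class 3 of the 5 strongest folds were lower in replicate 2, those of Kif13b, Kif13a and Kif5b.

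The other transport kinesins with a peak in both lists, Kif3c, Kif1b and Kif16b, had folds between 5.30 and 7.81. A pair of transport kinesins had a peak in replicate 1 only. Kif3b, a subunit of the kinesin of cilia, had a fold of 5.69 at rank 6670. Kif5a, a neuronal conventional kinesin, had 4.62 at rank 7523, from a peak that also lay within 1000 bp of the dynactin gene Dctn2. Both were among the weaker peaks of their list. Without a peak in any of the 4 lists were Kif1a, Kif3a, Kif5c, Kif17 and Kifc2, of which Kif1a, Kif5c and Kifc2 are known mainly from neurons.

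Kif24, which restrains the growth of primary cilia at the mother centriole, had the highest mean fold of all kinesins. Its folds were 24.2 and 45.1, at ranks 528 and 277, from a peak shared with the neighbouring gene Nudt2. Kif2a, a depolymerase of spindle poles and nerve cell branches, had folds of 13.4 and 29.4. Kif21a, which limits microtubule growth at the cell cortex, had 6.90 and 13.3. Kif7, a regulator of Hedgehog signalling at the cilium tip, had 7.97 and 8.56, and Kif26b, known from kidney development, had 8.03 and 6.51. Kif2b, Kif6, Kif9, Kif12, Kif19a, Kif21b, Kif26a, Kif27 and Kif28 had no peak in any list. With Kif2a, Kif2b and Kif24, which also have roles at spindle poles or centrioles, moved to the mitotic class, its share was 15 of 16 (93.8%). The same move left the others at 3 of 11 (27.3%), against 34.4% of all protein-coding genes.

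**Figure D2:**
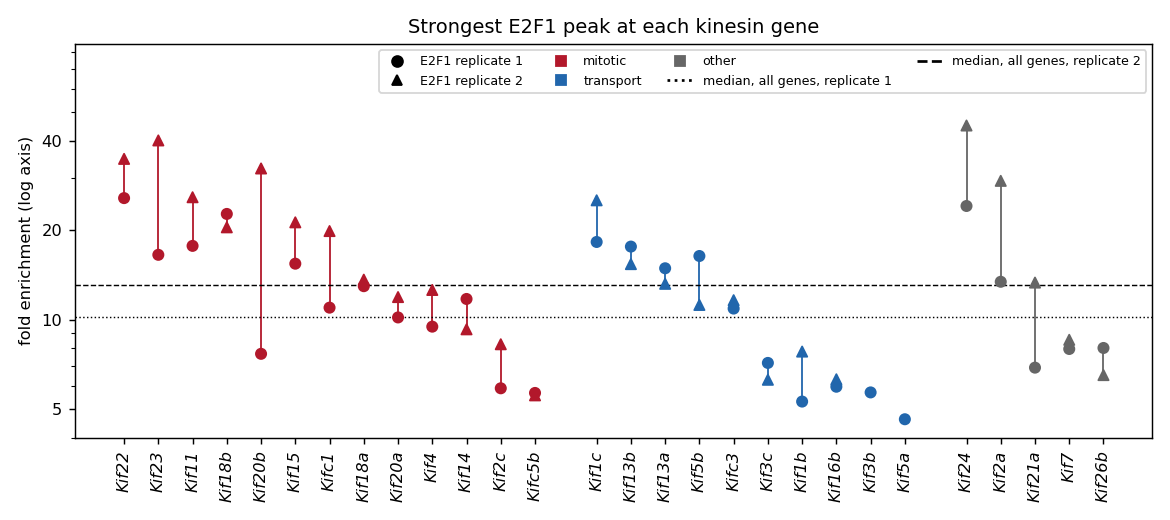
Fold enrichment (log axis) of the strongest peak at each of the 28 kinesin genes with an E2F1 peak, in E2F1 replicate 1 (circles) and replicate 2 (triangles), by class; horizontal lines are the medians over the 7537 genes with a peak in both lists. Mitotic and transport kinesins overlap over most of their range, and Kif20b and Kif23 differ most between the libraries.

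With the strongest peak at each gene, fold enrichment did not order the classes the same way in both libraries. In replicate 1 the median fold was 11.7 for mitotic, 12.9 for transport and 8.03 for other kinesins, against 10.2 for all 7537 genes with a peak in both lists. In replicate 2 the medians were 19.9, 11.4 and 13.3, against 13.1. By this measure mitotic kinesins stood below transport kinesins in replicate 1 and above them in replicate 2. With only peaks within 1000 bp of a RefSeq start they stood above in both, at 12.0 against 7.15 and 20.2 against 7.81, over 10 mitotic and 5 transport kinesins. That set leaves out Kif13b, Kif5b and Kifc3, which are not in the promoter table, with mean folds of 16.5, 13.8 and 11.3. It also leaves out the mitotic Kif20a, not in that table, and Kif14 and Kif2c, whose peaks lay away from the start. Their mean folds were 11.1, 10.5 and 7.07, below the mitotic median of 15.4, so the set changed on both sides. With Kif22 taken at its own start instead of the Maz end, the mitotic medians were 11.0 and 13.6, the latter near the 13.1 of all genes. In the top 25% of the list by fold were 5 and 7 of the 13 mitotic kinesins and 4 and 1 of the 8 transport kinesins, against 29.4% and 29.5% of all genes with peaks in both lists. The mitotic counts were 4 and 6 with Kif22 at its own start. Of the mitotic kinesins 10 of 13 had the higher fold in replicate 2, of the transport kinesins 4 of 8, and of all genes 70.9%. Across the 26 kinesin genes the folds of the libraries, which share the cell line and the peak caller, had a Spearman rho of 0.75, against 0.71 over all genes.

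Almost all kinesin peaks lay at an end of the gene. Within 1000 bp of a gene boundary were 28 of 29 peaks in replicate 1 and 26 of 27 in replicate 2. Counted by gene, 25 of the 26 kinesins with a peak in both lists had one near a boundary in both. Of all 7537 such genes 6760 did, so this place is not particular to kinesins. For genes with a RefSeq start in the promoter table, 21 of 24 and 20 of 23 summits lay within 1000 bp of that start, at a median distance of 119 and 71 bp. These summits lay between 281 bp before and 323 bp after the start in replicate 1, and between 241 bp before and 198 bp after it in replicate 2. The exceptions were the Maz end of Kif22, and Kif14 and Kif2c. The peaks of Kif14 had summits at -1350 and -1308 bp from the start in the table and those of Kif2c at -3694 and -3821 bp, each at the outer boundary of its gene.

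**Figure D3:**
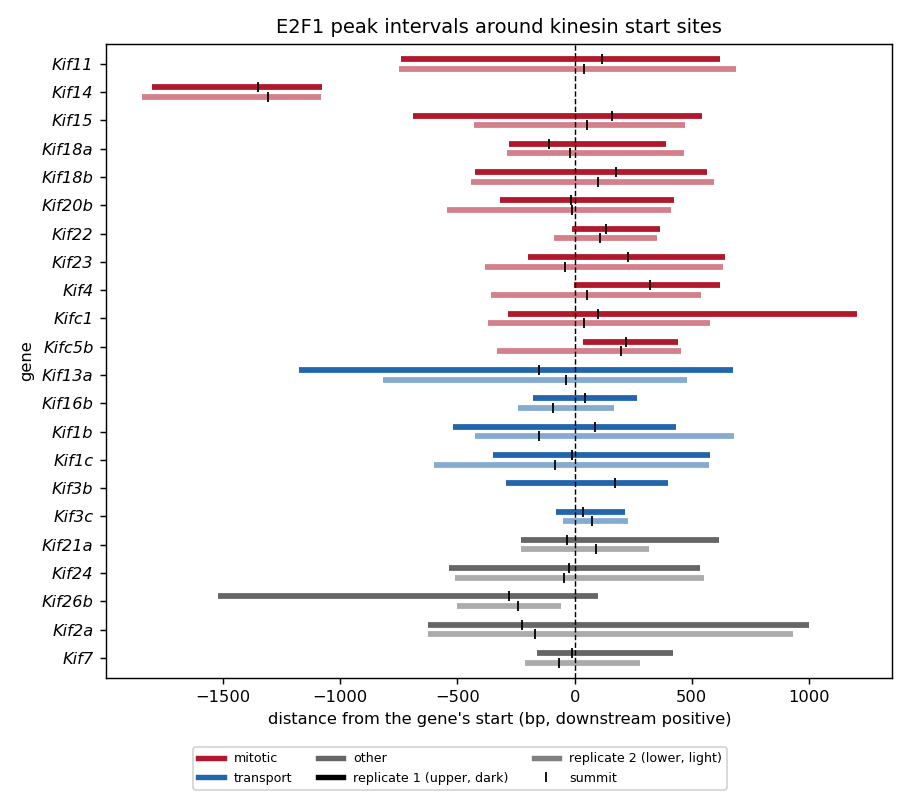
E2F1 peak intervals (bars) and summits (ticks) by distance from the RefSeq start of each gene (horizontal axis, bp, downstream positive), for kinesins with a summit within 1500 bp of it; upper dark bars are replicate 1 and lower light bars replicate 2. The intervals cover the start at 20 genes in replicate 1 and at 19 in replicate 2, while those of Kif14 lie wholly upstream.

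Several of these peaks cannot be given to the kinesin alone. A protein-coding neighbour also lay within 1000 bp of the peak at Kif15 (1110059G10Rik), Kif18a (Mettl15), Kif20a (Brd8), Kif4 (Pdzd11) and the far end of Kif22 (Maz) among mitotic kinesins. The same held for Kif1c (Inca1) and Kif5a (Dctn2) among transport kinesins, and for Kif24 (Nudt2) and Kif21a (Gm52215) among the others. The peak intervals had median widths of 848 and 898 bp. Recovered pileups at the summits ran from 17 to 136 reads in replicate 1 and from 17 to 153 in replicate 2, over backgrounds of 1.85 to 6.94.

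The genes that work with kinesins were taken as 3 further lists. The spindle partners include Cenpe, itself a mitotic kinesin, which had folds of 7.64 and 14.7. Among spindle partners 15 of 16 (93.8%, 71.7 to 98.9%) had a peak in both E2F1 lists, against 34.4% of all protein-coding genes. The strongest were Incenp, the scaffold of the chromosomal passenger complex, with folds of 27.4 and 40.1, and Racgap1, the partner of Kif23 in centralspindlin, with 20.6 and 33.3. Hmmr, a spindle pole protein, had a peak in replicate 1 only, with a fold of 9.66. Of the kinesin partners, the light chains and adaptors, 5 of 6 (83.3%, 43.6 to 97.0%) had a peak in both lists and Klc3 had none. Kifap3, the adaptor of kinesin-2, had folds of 13.7 and 12.9, and Klc1, a light chain of conventional kinesin, 8.62 and 14.7.

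Dynein and dynactin form the opposing motor, which walks to microtubule minus ends and serves both transport and mitosis. Of their genes 12 of 15 (80.0%, 54.8 to 93.0%) had a peak in both lists, against 34.4% of all protein-coding genes. Dctn4 had folds of 20.7 and 19.3 and Dctn1, the large dynactin subunit, 16.0 and 21.4. Dctn2 had a peak in replicate 1 only, Dctn6 in replicate 2 only, and Dync1i1, the neuronal intermediate chain, in neither. No gene of the 3 partner lists had a peak in an EV list, where few genes of any kind had one. In median fold the dynein and dynactin genes (8.49 and 9.94) lay below the mitotic kinesins in both replicates, while the spindle partners had 11.1 and 14.7. The medians over all genes with a peak in both lists were 10.2 and 13.1, also above those of the dynein and dynactin genes.

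The promoter table held 33 of the 42 kinesins, 12 of them mitotic and 10 transport. A peak within 1000 bp of the RefSeq start in both lists was present for 10 of 12 mitotic, 5 of 10 transport and 5 of 11 other kinesins, against 33.1% of the 17492 genes in the table. The windows, from 250 bases before to 50 bases from the start, were searched on both strands for the motifs spelled out above. An E2F motif of 8 bases was in 2 of 12 mitotic promoters, those of Kif15 and Kif18a, in 0 of 10 transport promoters and in 3.29% of all protein-coding genes. Genes with an E2F1 peak at the start in both lists held it more often, at 6.52%, than genes with a peak in neither, at 1.43%. These groups of genes also differed in median GC content, at 63.7% against 51.3%, whose part in the motif shares was not tested. With the motif shortened to its last 7 bases, which include every 8-base match, the counts were 2 of 12, 1 of 10 and 13.7% of all genes.

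The CHR was far more frequent in mitotic kinesin promoters. It was in 11 of 12 (91.7%), all but Kif18a, against 1 of 10 transport promoters, 3 of 11 others and 20.2% of all genes. For Kif14 and Kif2c, whose peaks lay away from the start in the table, the window searched is not the one under the peak, and 9 of the 10 mitotic kinesins with a peak at the start in both lists held a CHR. Within 50 bases of the start it was in 9 of 12 mitotic promoters, 1 of 10 transport promoters, 2 of 11 others and 8 of 13 spindle partners, against 5.08% of all genes. The 3 outside the mitotic class were Kif1a, which had no E2F1 peak, Kif24 and Kif26b. Over all genes the CHR was less frequent with an E2F1 peak at the start in both lists than without one in either, at 15.4% against 23.3% in the whole window and 4.57% against 5.51% near the start. The part of the differing GC content of these groups was not tested here either. All 9 mitotic kinesins with a CHR near the start had a peak within 1000 bp of the start in both lists. The replicate 1 intervals at Kif22 and Kifc5b did not reach that CHR. Over all 32851 promoter windows the CHR was found in 19.2%, and within 50 bases of the start in 5.31%.

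CCAAT was in 8 of 12 mitotic and 3 of 10 transport promoters, against 42.3% of all genes, and within 50 bases of the start in 6 of 12 and 1 of 10, against 15.8%. Base composition differed as well, which bears on how often short motifs occur. The median GC content was 61.5% in mitotic, 65.7% in transport and 56.3% in all promoters, and its part in the motif counts was not tested. A match is a description of the letters and not of a bound site, and a window without one says nothing about binding.

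**Figure D4:**
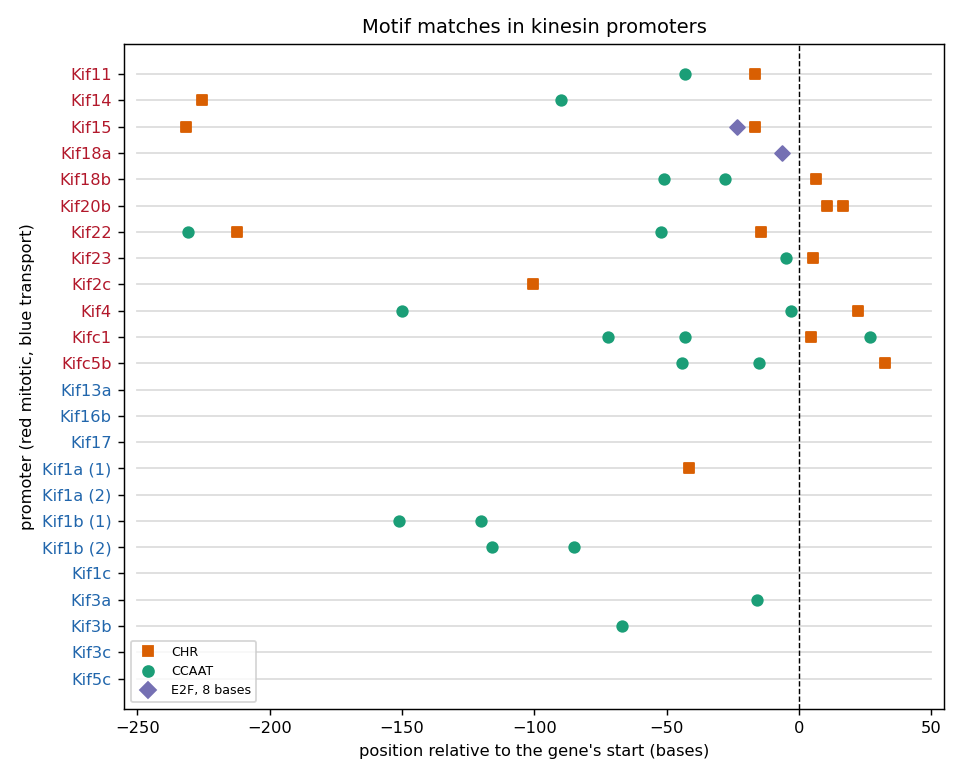
Positions of CHR, CCAAT and 8-base E2F matches relative to the start (horizontal axis, bases) in the promoters of 12 mitotic (red names) and 10 transport kinesins (blue names); numbers in brackets mark separate starts of 1 gene. CHR matches gather within 50 bases of the start in 9 of 12 mitotic kinesins and occur in 1 transport kinesin, Kif1a.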

How the data were processed

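The authors deposited 1 narrowPeak list per library, so peaks were taken as called per sample. Per the submitters' processing notes the tools were FastQC, Trimmomatic, Bowtie2, MACS2 and ChIPseeker and the build was mm10; settings, antibody and the control used are not given in the sources used here, and the labels' extraction protocol describes RNA. The authors' score equalled the −log10 q-value times 10 with decimals dropped for 99.9% and 99.8% of E2F1 peaks and 100% of EV peaks. The deposited fold is a ratio of pileup to local background, and the lists also hold a −log10 p-value and a −log10 q-value per peak. The smallest −log10 p was 10.0001, so weaker sites are missing from all 4 lists and a gene without a listed peak is not a gene without signal. The lists give no read totals, so depth is unknown.

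A peak was assigned to a gene when its interval overlapped, by at least 1 bp, the gene extended by 1000 bp, and the peak of highest score stood for the gene. Pileup and background were solved from fold and −log10 p under a Poisson model, within 5% of a step of 1 read, for 99.99% (replicate 1) and 99.98% (replicate 2) of E2F1 peaks and for 95.7% and 99.7% of EV peaks. For this the fold was taken as pileup plus 1 over background plus 1. Positions came from RefSeq (GRCm38.p6, the reference of mm10), and the steps were tested on simulated data. Members, classes, partner lists (all 37 symbols matched) and motifs were chosen with earlier results of these data known, so no list was tested and only the number of genes per library was. Named with values were all mitotic kinesins, the 5 transport and 5 other kinesins of highest mean fold, members with a peak in 1 list or an EV list, and the 2 strongest of each partner list; other members are given by range, and Hmmr and the Kif22 start peaks were added after their values were seen. Alternatives were other windows, gene ends only, start sites only, Kif22 at its own start, summits only, a higher score, 1 library left out and the replicate block. Python 3.11.15, numpy 2.4.6, pandas 2.3.3 and scipy 1.17.1 were used.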

Additional observations from a re-analysis of the deposited data

How the results depend on the processing

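Of 61 alternative values over 13 results, 52 stayed near the reported value: within the spread between libraries for medians, the interval for shares, or 1.5 times for the count of genes. These limits are wide where libraries differ or classes are small. For the mitotic median fold the limit was 5.76, so a value within it does not show a stable order of classes. Start sites only, Kif22 at its own start and motifs near the start were chosen after seeing the data. Keeping only peaks with a score at or above their list's median lowered the shares with a peak in both lists to 35.7% of kinesins, 69.2% of mitotic, 26.7% of transport and 14.3% of other kinesins, against 17.1% of all genes, by construction of fewer peaks. The median over genes of the mean fold was 15.4 for mitotic and 12.5 for transport kinesins. With gene ends only these were 15.4 and 13.8. With start sites only they were 16.9 and 6.71, over 10 and 5 genes, which widened the gap and turned the order in replicate 1. With Kif22 at its own start the mitotic value was 13.3. With 1 E2F1 library left out it ranged from 11.4 to 12.9 for transport and from 11.7 to 19.9 for mitotic kinesins. CCAAT within 50 bases of the start was in 10.0% of transport promoters, against 30.0% in the whole window; the cause was not tested.

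The difference of 27 genes per library was 26 to 28 with 1 library left out, and 16 with peaks at a score of at least 312 only. With the replicate number as a block it was again 27, and p was 0.5 by an exact test that flips signs within pairs, which is the lowest value 2 pairs can give. The labels do not say that a number marks a shared culture or day, and 1 count per library cannot show whether the numbers pair. The lists begin near a −log10 p of 10, so absence of a peak, above all in the EV lists, does not show absence of E2F1.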

Other observations

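The RefSeq table also lists 4 genes with kinesin-derived symbols that code for no protein: the pseudogenes Kif22-ps, Kifc5c-ps and Kif4-ps and the long non-coding gene Kif16bos. None of these 4 had a peak inside or within 1000 bp in any of the 4 lists. The protein-coding genes they are named for and that are in the table, Kif22, Kif4 and Kif16b, had peaks in both E2F1 lists. Kif16bos begins at base 142902965 of chromosome 2, and the Kif16b peaks end at 142901642 and 142901706. With the alternative window of 2500 bp these peaks would count for Kif16bos. The share of all non-coding genes with a peak was not counted, so no contrast is drawn.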
